A study of Ovis aries with 6 samples.

Results

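The smooth muscle contractile genes studied here were 10 genes named by symbol, MYH11, ACTA2, ACTG2, DES, TAGLN, CNN1, MYLK, LMOD1, SMTN and MYOCD, and 9 of them were found among the 28394 genes of the files. LMOD1 was found neither under its symbol nor through the name table and was not analysed here. The 9 genes were measured in skin of 3 Super Merino (SM) and 3 Small Tail Han (STH) ewes. SM is a fine-wool breed and STH a coarse-wool breed. The ewes were kept on the same farm and feed and sampled behind the shoulder blade in mid-October. The sample labels give an age of 9 months for all 6 ewes, whereas the methods of the study give a younger age. Each ewe is 1 sheep with 1 library of polyA RNA, labelled 128, 30034 and 30126 in SM and XW3, XW5 and XW8 in STH, and no treatment was applied.

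Smooth muscle in skin lies in the arrector pili muscles, which raise the hair fibres, and in the walls of blood vessels. Its cells contract when calcium activates myosin light chain kinase, which phosphorylates the light chain of smooth muscle myosin and lets it pull on actin filaments. Calponin, transgelin and smoothelin bind those filaments, desmin intermediate filaments link the dense bodies, and myocardin is the coactivator of serum response factor that switches on many of these genes. Whole skin was measured, so that fewer smooth muscle cells and less RNA of these genes per cell cannot be told apart. Keratinocytes, fibroblasts and vessel cells were in the same libraries.

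Total counts ranged from 28870583 to 44645091 per library, and 3 counts corresponded to 0.0672 to 0.104 CPM, which is the count scaled to library size. All 9 genes had counts in every sheep and were among the 15320 genes with enough counts to be tested. The lowest was 78 counts of MYOCD in 1 sheep and the highest 27446 counts of MYH11 in another. Values below are CPM scaled by the TMM method of edgeR unless RPKM is named. Together the 9 genes took 0.156 to 0.168% of the counts in SM and 0.234 to 0.290% in STH sheep.

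Most of the contractile genes were higher in the skin of STH sheep, but the difference was uneven. In STH the mean level was 2.59 times that of SM for MYOCD, 2.49 times for DES and 2.07 times for MYH11. ACTG2, MYLK, ACTA2 and CNN1 were 1.52 to 1.64 times as high in STH, whereas SMTN and TAGLN were at 1.09 and 1.01 times. For 8 of the 9 genes every STH sheep was above every SM sheep, compared with 13.3% of all genes tested, while 12.3% had every SM sheep above every STH sheep. The exception among the 9 was TAGLN, and the STH margin of SMTN was narrow.

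By the quasi-likelihood test of edgeR, 0 of the 9 genes passed both thresholds, a fold change over 1.5 in either direction and an adjusted p under 0.05, as did 0.0% of all genes tested. At an unadjusted p under 0.05, 7 of the 9 were higher in STH, against 10.8% of all genes, and 0 were higher in SM, against 7.21%. The likelihood ratio test of edgeR passed 6 of the 9, all higher in STH, against 1.43% of all genes in that direction, and so did the exact test, against 1.33%. DESeq2 also passed 6, against 1.85%, and these were the same 6 genes (MYH11, DES, MYOCD, ACTG2, MYLK and CNN1). Leaving out SM sheep 128 let the quasi-likelihood test pass 4 (MYH11, DES, MYOCD and ACTG2), while 6.39% of all genes then passed in the STH direction. In RPKM with limma MYH11 alone passed, against 0.0587% of all genes. By limma-voom, which is limma on weighted counts, 0 of the 9 passed and 0 of all genes tested. MYH11, DES, ACTG2 and MYOCD are also in the list of differing genes that the study drew from these same libraries, so that their direction is not independent evidence.

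**Figure D1:**
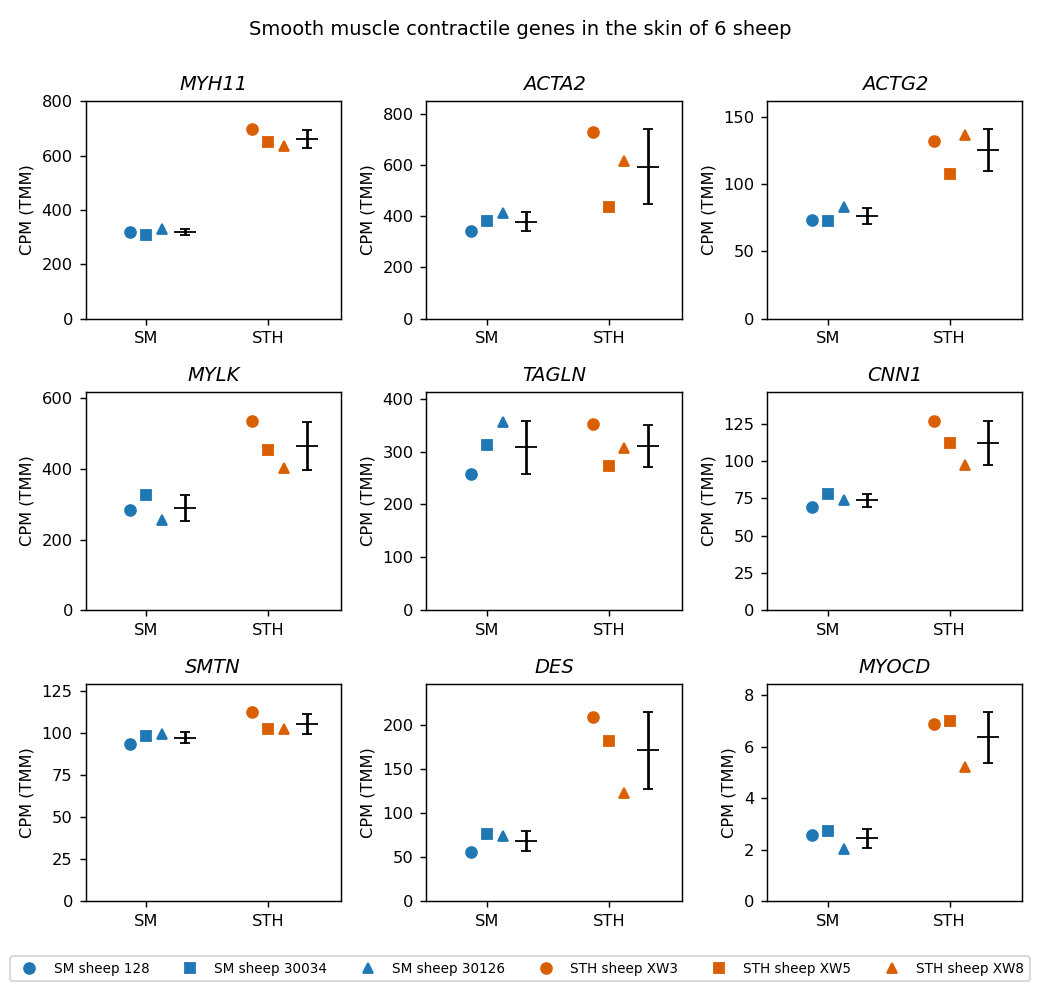
TMM-scaled CPM of the 9 genes (vertical axes from 0) in 3 SM and 3 STH sheep, with 1 point per sheep and the mean ± SD of each breed beside the points. The breeds are apart for MYH11, with 308 to 331 CPM in SM and 635 to 697 CPM in STH, and overlap for TAGLN.

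Smooth muscle myosin heavy chain, the motor of contraction, is encoded by MYH11 (identifier 101114409, Oar_v4.0 chromosome 24, 14090323 to 14217839, minus strand). MYH11 was at 317 CPM in SM sheep 128, 308 in 30034 and 331 in 30126, and at 697 CPM in STH sheep XW3, 650.2 in XW5 and 635 in XW8. The 3 sheep of each breed lay close together and the breeds were far apart. The mean was 319 ± 11.4 CPM in SM and 661 ± 32.6 CPM in STH (SD, n = 3 each), with coefficients of variation of 3.59 and 4.94%. SM over STH gave a log2 fold change of -1.05 (SE 0.13, 95% interval -1.36 to -0.75). Its adjusted p was 0.0996 by the quasi-likelihood test, 1.22e-06 by the likelihood ratio test and 8.79e-12 by DESeq2. Without SM sheep 128 the quasi-likelihood adjusted p was 0.0163.

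ACTA2 (101121051, chromosome 22, 10338736 to 10356768, minus strand) encodes smooth muscle alpha actin, the main actin of vascular smooth muscle, which myofibroblasts and pericytes also make. ACTA2 was at 340.1, 380.3 and 413 CPM in the SM sheep and at 727, 437 and 614 CPM in the STH sheep, in the order given for MYH11. The breeds did not overlap, but STH sheep XW5 was only a little above the highest SM sheep. The mean was 378 ± 36.6 CPM in SM and 593 ± 146 CPM in STH (SD, n = 3 each), and the highest STH sheep was 1.66 times the lowest, compared with 1.10 times for MYH11. The log2 fold change was -0.65 (SE 0.20, 95% interval -1.11 to -0.19), with an adjusted p of 0.247 by the quasi-likelihood test and 0.0952 by the likelihood ratio test.

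ACTG2 (101114256, chromosome 3, 95503479 to 95527600, plus strand) encodes smooth muscle gamma actin, which is best known from visceral smooth muscle. ACTG2 stood at 73.2, 72.3 and 83.0 CPM in SM and at 132, 107 and 136 CPM in STH. Every STH sheep was above every SM sheep, with means of 76.2 ± 5.92 and 125 ± 15.7 CPM in SM and STH (SD, n = 3 each). On the log2 scale the fold change was -0.72 (SE 0.15, 95% interval -1.05 to -0.38). Its adjusted p was 0.199 by the quasi-likelihood test, 0.00854 by the likelihood ratio test and 0.0423 by the quasi-likelihood test without SM sheep 128. The actins are near-identical paralogs, and how reads shared among them were counted was not tested, so that the split between ACTA2 and ACTG2 is uncertain.

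Myosin light chain kinase is encoded by MYLK (443334, chromosome 1, 186094658 to 186327788, minus strand), whose non-muscle products are made in other cells as well. MYLK was at 285, 327 and 256 CPM in the SM sheep and at 537, 454 and 404 CPM in the STH sheep, without overlap. The means were 289 ± 36.0 and 465 ± 67.3 CPM (SD, n = 3 each). The log2 fold change was -0.68 (SE 0.17), with an adjusted p of 0.231 by the quasi-likelihood test and 0.0322 by the likelihood ratio test. Removing the trend of each sheep's counts on gene length reduced its size to -0.41, while MYH11 then stood at -0.83 and DES at -1.33. Counts do not separate the products of MYLK.

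Of the 3 actin-binding proteins, transgelin and smoothelin had log2 fold changes nearest to 0 and calponin was higher in STH. TAGLN (101118555, chromosome 15, 27341499 to 27346971, plus strand) encodes transgelin, a calponin-related protein of early smooth muscle that fibroblasts make too. TAGLN was at 257, 312 and 357 CPM in SM and at 352, 273 and 307 CPM in STH. The breeds overlapped throughout, and the means of 309 ± 50.2 and 311 ± 39.3 CPM (SD, n = 3 each) differed by less than the spread between sheep. On the log2 scale the fold change was -0.01 (SE 0.17, 95% interval -0.40 to 0.38; adjusted p 0.978, quasi-likelihood test). The interval still includes differences of that size in either direction, so that equal levels were not shown.

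CNN1 (443517, chromosome 5, 13491920 to 13505995, plus strand) encodes calponin, which slows the myosin motor on actin. CNN1 was at 69.0, 78.1 and 73.7 CPM in the SM sheep and at 127, 112 and 97.6 CPM in the STH sheep, without overlap. The log2 fold change was -0.61 (SE 0.15), with an adjusted p of 0.227 by the quasi-likelihood test and 0.0375 by the likelihood ratio test. Its end overlaps ELOF1 (13504444 to 13510251), a gene on the other strand with 711 to 1767 counts per library, and the kit does not mark strand, so that reads of the shared stretch cannot be told apart.

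SMTN (101103186, chromosome 17, 69394189 to 69417365, plus strand) encodes smoothelin, a protein of fully contractile smooth muscle. SMTN was at 93.7, 98.7 and 99.7 CPM in the SM sheep and at 113, 102 and 102 CPM in the STH sheep. The lowest STH sheep was only just above the highest SM sheep, and the breeds overlapped under upper quartile scaling, after removal of the length trend and in RPKM. On the log2 scale the fold change was -0.12 (SE 0.13, 95% interval -0.40 to 0.16; adjusted p 0.583, quasi-likelihood test).

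Desmin, the muscle intermediate filament protein, is encoded by DES (101117308, chromosome 2, 220321994 to 220328992, plus strand) and is also made in skeletal muscle. DES was at 55.8, 76.2 and 74.0 CPM in the SM sheep and at 208, 181 and 123 CPM in the STH sheep. All STH sheep were above all SM sheep, but STH sheep XW3 was 1.69 times XW8. The means were 68.6 ± 11.2 CPM in SM and 171 ± 43.5 CPM in STH (SD, n = 3 each). The log2 fold change was -1.32 (SE 0.22, 95% interval -1.81 to -0.82). Its adjusted p was 0.159 by the quasi-likelihood test, 3.70e-05 by the likelihood ratio test and 0.0210 by the quasi-likelihood test without SM sheep 128.

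Myocardin is encoded by MYOCD (101104413, chromosome 11, 30646505 to 30735045, plus strand), the gene with the lowest RPKM of the 9. MYOCD was at 2.58, 2.75 and 2.04 CPM in the SM sheep and at 6.87, 6.99 and 5.23 CPM in the STH sheep. The lowest STH sheep was well above the highest SM sheep. The means were 2.45 ± 0.370 and 6.36 ± 0.984 CPM (SD, n = 3 each). On the log2 scale the fold change was -1.37 (SE 0.26, 95% interval -1.97 to -0.78). It was larger in size than that of DES by less than the SE of either, and the order turned after removal of the length trend (-1.10 against -1.33), in RPKM, and without SM sheep 30126 or STH sheep XW8. Its adjusted p was 0.162 by the quasi-likelihood test, 0.00219 by the likelihood ratio test and 0.0330 by the quasi-likelihood test without SM sheep 128.

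**Figure D2:**
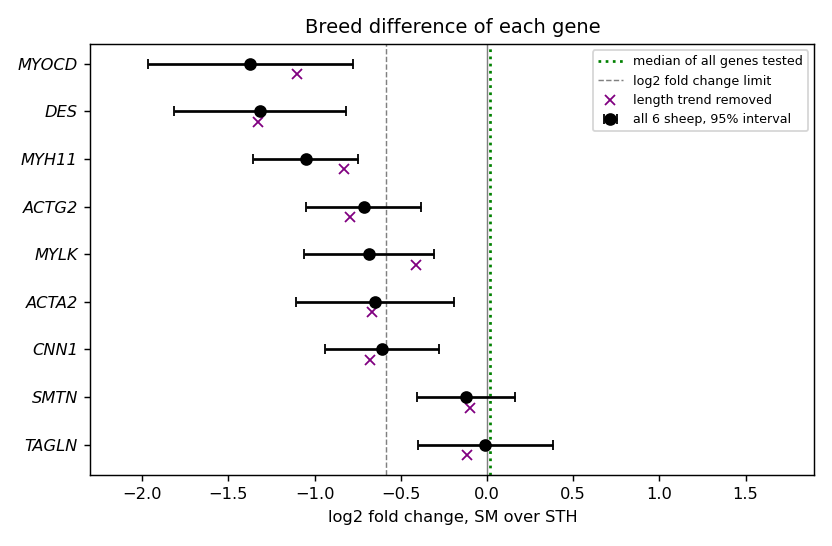
Log2 fold change of SM over STH (horizontal axis) of the 9 genes, with 95% intervals from the quasi-likelihood fit of all 6 sheep; crosses show the value after removal of the length trend, the dotted line the median of all genes tested and the dashed line the fold change limit. MYOCD, DES and MYH11 are furthest to the left, between -1.37 and -1.05, and the intervals of SMTN and TAGLN include 0.

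The median log2 fold change of the 9 genes was -0.68, whereas that of all 15320 genes tested was 0.02. Without MYH11, DES, ACTG2 and MYOCD the median of the other 5 was -0.61, and it was -0.41 after removal of the length trend. In the order of all genes from most to least STH-biased, 1.69% lay below MYOCD, 1.93% below DES and 3.73% below MYH11. ACTG2, MYLK, ACTA2 and CNN1 had 9.45 to 12.8% of genes below them, SMTN 38.9% and TAGLN 47.8%. The contractile genes thus ranged from the far end of the distribution to its middle.

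Levels of different genes were compared only per length, in RPKM. In SM skin TAGLN was the highest at 185 ± 33.4 RPKM (SD, n = 3), followed by ACTA2 at 129 ± 14.97 RPKM, and the sheep of these neighbours did not overlap. ACTG2, CNN1 and MYH11 followed with means of 34.3 to 38.4 RPKM, and neighbours in that order overlapped. SMTN, MYLK and DES stood at 22.3 to 26.7 RPKM, again with overlap between neighbours, and MYOCD at 0.194 RPKM.

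In STH skin the order was different at the top and in the middle. ACTA2 had the highest mean at 197 ± 52.3 RPKM and TAGLN stood at 180.4 ± 26.6 RPKM (SD, n = 3 each), but the sheep of these genes overlapped. MYH11 was at 69.0 ± 4.83 RPKM, ACTG2 at 61.1 RPKM, DES at 53.7 ± 14.4 RPKM and CNN1 at 52.7 RPKM, each overlapping the next. MYLK at 36.3 RPKM, SMTN at 28.2 RPKM and MYOCD at 0.488 RPKM were each apart from the gene above. DES was thus below CNN1, SMTN and MYLK in SM and above them in STH, although it overlapped CNN1 and MYLK in STH and SMTN and MYLK in SM.

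**Figure D3:**
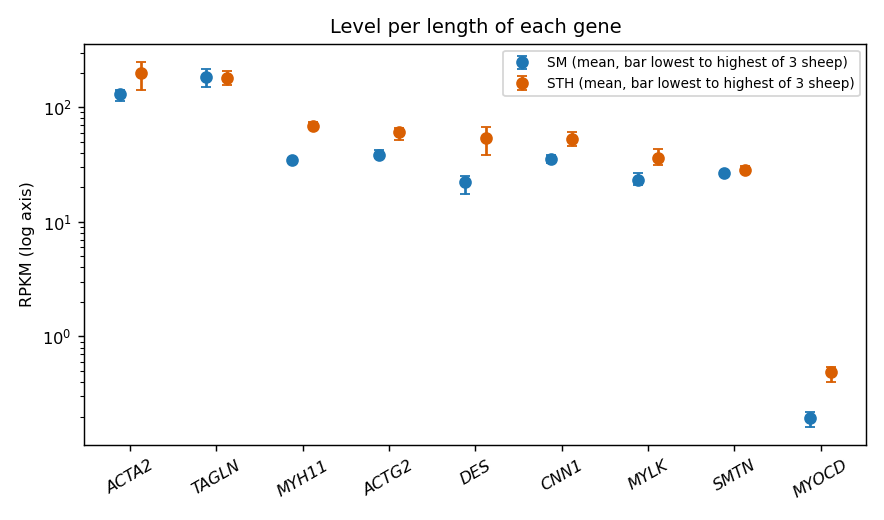
Deposited RPKM of the 9 genes on a log axis, as the mean of 3 sheep per breed with bars from the lowest to the highest sheep. TAGLN and ACTA2 are highest in both breeds, and MYOCD is lowest at 0.194 RPKM in SM and 0.488 RPKM in STH.

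ACTG2 and DES were then set against ACTA2 and TAGLN within each sheep, which removes the scaling between libraries. The log2 ratio of DES to TAGLN in RPKM was -3.09 for SM sheep 128, -2.92 for 30034 and -3.16 for 30126, and among STH sheep XW3 had -1.64, XW5 -1.48 and XW8 -2.205. All STH sheep were above all SM sheep, and the ratio was on average 2.43 times as high in STH. The difference of SM minus STH was -1.28 on the log2 scale (exact permutation test, two-sided, p = 0.1, adjusted over 4 pairs 0.133). With 3 sheep against 3 a p of 0.1 is the smallest that this test can give.

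For ACTG2 to TAGLN the log2 ratio was -2.06, -2.36 and -2.35 for SM and -1.67, -1.60 and -1.42 for STH. The breeds did not overlap here either, and the difference of SM minus STH was -0.70 (exact permutation p = 0.1, adjusted 0.133). Both comparisons with TAGLN thus placed all 3 STH sheep above all 3 SM sheep.

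Against ACTA2 the picture was weaker. The log2 ratio of DES to ACTA2 was -2.69, -2.40 and -2.56 for SM and -1.88, -1.35 and -2.40 for STH, and XW8 and SM sheep 30034 were nearly equal. The difference of SM minus STH was -0.67 (exact permutation p = 0.1, adjusted 0.133), and it was -0.41 without STH sheep XW5. After removal of the length trend the breeds overlapped and the exact p was 0.2.

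The log2 ratio of ACTG2 to ACTA2 was -1.66, -1.84 and -1.76 for SM and -1.91, -1.47 and -1.61 for STH. The STH sheep lay on both sides of the SM sheep. The difference of SM minus STH was -0.09 (exact permutation p = 0.6, adjusted 0.6), and it ranged from -0.21 to 0.01 when single sheep were left out. No difference in the balance of the smooth muscle actins was therefore detectable in these 6 sheep.

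**Figure D4:**
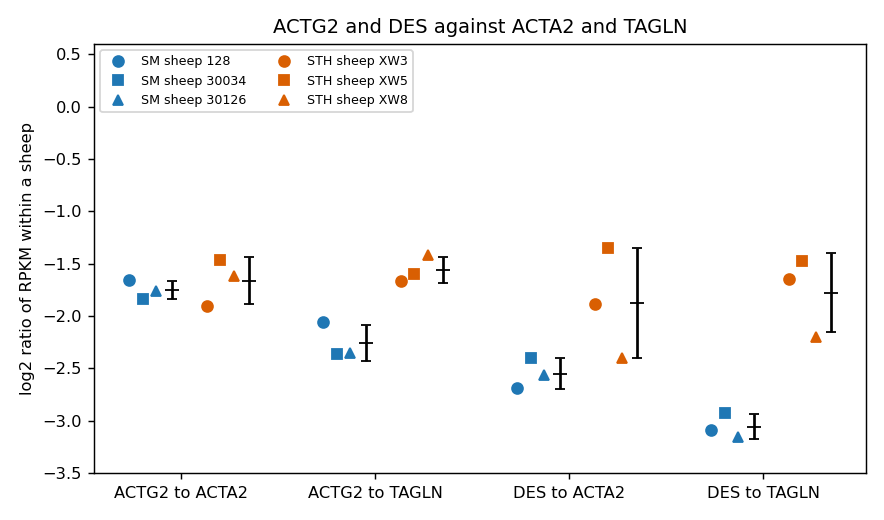
Log2 ratio of RPKM within each sheep (vertical axis) for ACTG2 and DES against ACTA2 and TAGLN, with 1 point per sheep and the mean ± SD of each breed. DES to TAGLN is lowest in SM, from -3.16 to -2.92, with STH sheep from -2.205 to -1.48, and the breeds overlap for ACTG2 to ACTA2.

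Other proteins of the contractile apparatus were taken from lists. Among 14 filament and dense body proteins, 7 were higher in STH at an unadjusted p under 0.05 and 0 in SM, against 10.8% and 7.21% of all genes, and the median log2 fold change of the 14 was -0.60. These 7 also passed both thresholds by DESeq2, against 1.85% of all genes, and 0 passed by the quasi-likelihood test. The tropomyosins, which lie along actin filaments, were among those with the smallest p, with TPM2 at 71.8 ± 4.005 and 125 ± 12.3 CPM and TPM1 at 409 ± 74.6 and 727 ± 56.1 CPM in SM and STH (SD, n = 3 each). NEXN, an actin-binding protein of muscle, was at 17.6 ± 7.42 and 55.6 ± 10.1 CPM. VCL and ACTN1, cytoskeletal proteins of many cell types, had log2 fold changes of -0.01 and 0.04. TPM1, TPM2, NEXN, SYNPO2 and PDLIM3 are in the study's own list from these libraries.

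Of the 9 genes of contraction signalling, PPP1R12B was not found and 8 were tested. Of these, 5 were higher in STH at an unadjusted p under 0.05 and 0 in SM, against 10.8% and 7.21% of all genes, and 3 passed by DESeq2, against 1.85%. The median log2 fold change of the 8 stood at -0.73. PPP1R12A, the targeting subunit of myosin phosphatase, was at 116 ± 33.9 CPM in SM and 215 ± 32.7 CPM in STH (SD, n = 3 each), with a log2 fold change of -0.90. PPP1R14A, an inhibitor of that phosphatase, had a log2 fold change of -0.56. PPP1R12A is broadly made and is in the study's list from these libraries.

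Of 10 genes of calcium handling and channels, 7 had a log2 fold change below 0 and the median was -0.30. At an unadjusted p under 0.05, 1 of the 10 was higher in STH, PLN, against 10.8% of all genes. PLN encodes phospholamban, the regulator of the calcium pump of the sarcoplasmic reticulum. PLN was at 3.57, 0.886 and 0.764 CPM in the SM sheep and at 16.7, 23.8 and 11.5 CPM in the STH sheep. The STH sheep were far above the SM sheep, with a log2 fold change of -3.35 (SE 0.59), and PLN is in the study's list as well. ITPR1 and RYR3, calcium release channels, followed with -0.39 and -0.75. All 7 genes of the serum response factor axis had an unadjusted p of 0.05 or more and their median was 0.12. SRF itself was at 32.3 ± 1.62 CPM in SM and 29.7 ± 1.98 CPM in STH (SD, n = 3 each), while ELK1 and MKL1 had log2 fold changes of 0.35 each.

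Markers of cells that share some of these genes were measured in the same libraries. The 10 markers of vascular mural cells, which surround vessels and make ACTA2 and MYH11 as well, summed to 583 to 626.5 CPM in SM and 603 to 628 CPM in STH sheep. At an unadjusted p under 0.05, 3 of them were higher in SM (PDGFRB, HIGD1B and HEYL) and 2 in STH (RGS5 and NDUFA4L2), against 7.21% and 10.8% of all genes. RGS5 was at 34.0 ± 17.3 CPM in SM and 93.2 ± 34.3 CPM in STH (SD, n = 3 each), without overlap. Of the 10, RGS5 alone passed both thresholds by the likelihood ratio test, against 1.43% of all genes, and by DESeq2, against 1.85%. By the quasi-likelihood test 0 passed. RGS5 is in the study's own list from these libraries. The 9 endothelial markers found summed to 671 to 854 CPM in SM and 447 to 733 CPM in STH. At an unadjusted p under 0.05, 3 of the endothelial markers were higher in SM and 1 in STH, against 7.21% and 10.8% of all genes. The summed level of mural and endothelial markers was therefore no higher in STH beyond the overlap of the sheep. Single markers of both lists went in either direction. NPNT and ITGA8, the matrix protein and integrin that anchor the arrector pili muscle, summed to 21.1 to 40.0 CPM in SM and 39.4 to 47.8 CPM in STH, with an unadjusted p over 0.05 for both. NPNT by itself had every STH sheep above every SM sheep, against 13.3% of all genes, with 12.7 to 22.9 CPM in SM and 24.7 to 28.0 CPM in STH. The breeds overlapped for ITGA8.

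The summed level of skeletal muscle markers was also higher in STH than in SM, in large part through the single gene NEB. NEB itself overlapped between the breeds, with 27.9 CPM in SM sheep 128 and 17.2 CPM in STH sheep XW3. It was at 8.97 and 9.15 CPM in SM sheep 30034 and 30126 and at 66.7 and 55.8 CPM in STH sheep XW5 and XW8. The 16 markers found of 19 summed to 59.8 to 80.2 CPM in SM and 92.1 to 130.4 CPM in STH sheep, and 4 of the 12 tested were higher in STH at an unadjusted p under 0.05 and 0 in SM, against 10.8% and 7.21% of all genes. ACTN2, MYBPC2, ACTA1 and NEB were these 4, with ACTA1 at 1.17 ± 0.611 CPM in SM and 5.32 ± 3.37 CPM in STH (SD, n = 3 each). Of the 12, 2 passed both thresholds in the STH direction by the likelihood ratio test, against 1.43% of all genes. DESeq2 passed 3, against 1.85%, and the quasi-likelihood test 0. MYBPC2, ACTA1 and NEB are in the study's own list from these libraries, so that their direction is not independent evidence. Within STH, XW3 had the highest DES and the lowest skeletal muscle sum, but single markers differed in order. NEB and MYBPC2 were lowest in XW3, at 17.2 and 3.63 CPM, whereas ACTA1 and ACTN2 were highest there, at 8.75 and 10.7 CPM. TNNI2 had every SM sheep above every STH sheep, with a log2 fold change of 0.52, and CKM, ACTN3 and TNNI1 had values of -0.07, -0.10 and 0.25. Among the defining markers, MYL1 was at 0 in every library and TNNC1, TNNC2 and MYLPF were too low to be tested, at no more than 0.33 CPM. MYH1, MYH2 and TNNT3 were not found. The part of skeletal muscle in the level of DES was not tested. Fibroblast markers overlapped, with 15257 to 21647 CPM in SM and 17667 to 21621 CPM in STH.

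Markers of the suprabasal epidermis, the differentiating keratinocytes, were higher in STH as well. The 3 found of 4 (LOR was not found) summed to 1319 to 1656 CPM in SM and 1974 to 4719 CPM in STH sheep. All 3 were higher in STH at an unadjusted p under 0.05, against 10.8% of all genes. They also passed both thresholds by the likelihood ratio test, against 1.43%, and by DESeq2, against 1.85%, while 0 passed by the quasi-likelihood test. All 3 are in the study's own list from these libraries. KRT10 had a log2 fold change of -1.34, KRT1 of -1.20 and IVL of -1.05, and the sheep overlapped for KRT1. Among the STH sheep the suprabasal sum was 1974 CPM in XW3, 3499 in XW5 and 4719 in XW8. The contractile genes summed to 2899.7, 2324 and 2425 CPM in the same order, and a relation between these sums was not tested. The 4 markers of basal keratinocytes and myoepithelium found of 5 (KRT14 was not found) overlapped, with 6111 to 7446 CPM in SM and 7243 to 10077 CPM in STH, and 0 had an unadjusted p under 0.05. The part of these cells in the level of the contractile genes was not tested.

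**Figure D5:**
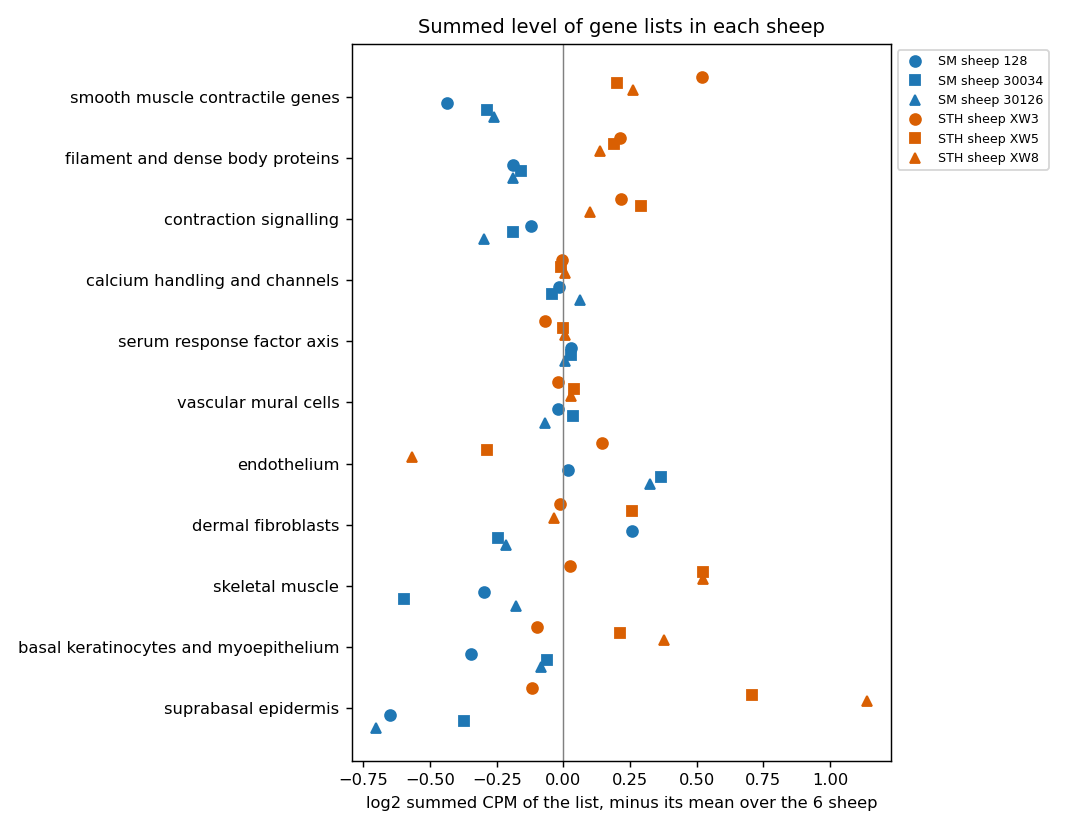
Summed CPM of each list in each sheep, as log2 minus the mean of the 6 sheep (horizontal axis), with 1 point per sheep. The breeds are apart for the contractile genes, for filament and dense body proteins, for contraction signalling, for skeletal muscle and for suprabasal epidermis, and overlap for the other 6 lists.

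The genes most like MYH11 over the 6 sheep were listed by Pearson's r of log2 CPM, as a description. The 10 genes outside the set with the highest r, from 0.983 to 0.997, were DTNA, ZBTB8OS, CDV3, PGM5, TPM2, LOC101113331, SPTSSB, CMPK1, MFSD4 and LOC101120001. DTNA was at 4.64 ± 0.184 CPM in SM and 10.8 ± 0.610 CPM in STH, and PGM5 at 38.0 ± 2.46 and 73.3 ± 4.69 CPM (SD, n = 3 each). All 10 had every STH sheep above every SM sheep, against 13.3% of all genes, but a choice by likeness to MYH11 favours this. DTNA, PGM5, TPM2, LOC101113331 and LOC101120001 are in the study's own list from these libraries. The points fall into 2 clusters, the breeds, so that r mostly follows the breed difference and the tightness of the sheep. In the same order MYOCD was in place 44, ACTG2 in 60, CNN1 in 73, DES in 80 and MYLK in 158, whereas ACTA2 was in 609, SMTN in 941 and TAGLN in 6918 with an r of 0.0984.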

How the data were processed

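Each of the 3 SM and 3 STH ewes gave 1 library of skin RNA, and p values measure the spread between these animals. The authors checked reads with FastQC, mapped them to Oar_v4.0 in CLC Genomics Workbench (its plugin for RNA-seq) and deposited a raw total count per gene for each sheep. Which fragments enter the count is not given in the sources used here. The RPKM deposited by the authors was used for levels per length. The deposited TPM, and a deposited score that the authors call CPM, were not used.

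Samples were grouped by the breed in their labels. A gene was tested when 3 or more sheep had 10 counts or more, which left 15320 of 28394. Counts were scaled by TMM and tested with the quasi-likelihood test of edgeR 4.0.16 in R 4.3.3, with breed as the only term and Benjamini-Hochberg adjustment over all genes. The standard error is the log2 fold change divided by the square root of F. Ratios within sheep were compared by exact two-sided permutation, and intervals and floors of 3 counts cover counting error only where no replicates enter. Alternatives were the likelihood ratio and exact tests, DESeq2 1.42.0, and limma 3.58.1 on counts (limma-voom) and on log2(RPKM + 0.1). On the RPKM scale the change of low genes is understated. Further alternatives were other filters and scalings, removal of a loess trend on length (span 0.5), and each sheep left out. The fits were tested on simulated data.

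The genes and lists were chosen with earlier results of these data known. Named genes are the members, the 3 genes of smallest p in each contractile list, and the 10 genes most like MYH11. Of the genes this rule names, 1 is not reported here. Other genes of the lists are named by their marker role, or after their values had been seen. The name table matched 21630 identifiers and all 9 members.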

Additional observations from a re-analysis of the deposited data

How the results depend on the processing

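No paired analysis was possible because the labels are those of single animals and link no sheep across breeds. The number of genes passing both thresholds was 0 in the quasi-likelihood fit, 2 with the newer dispersion estimate, 2 without a filter beyond 1 count, 8 after removal of the length trend, 11 in RPKM with limma, 332 by the exact test, 352 by the likelihood ratio test and 439 by DESeq2, and from 0 to 1175 with each sheep left out, the highest without SM sheep 128. Of the 9 contractile genes 0 passed, 6 by the exact test, 6 by the likelihood ratio test, 6 by DESeq2 and 1 in RPKM (MYH11), and from 0 to 4 with each sheep left out. By limma-voom, with the other scalings and with the stricter filter of 1 CPM, 0 genes passed, and so 0 of the 9. Their median log2 fold change ranged from -0.82, without STH sheep XW5, to -0.57. The ratio of ACTG2 to ACTA2 reversed without XW5, to 0.0096, in a range from -0.21. The log2 fold change of TAGLN reversed to 0.024 with upper quartile scaling and to 0.030 in RPKM, and it ranged from -0.11 to 0.11 with each sheep left out, reversing without SM sheep 128 and without STH sheep XW3. At an unadjusted p under 0.05, 1104 genes were higher in SM and 1658 in STH, compared with 1437 and 1402 under upper quartile scaling and 1576 and 1431 after removal of the length trend. The causes were not tested. Depth limits MYOCD most, and 3 sheep per breed limit every ratio.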

Other observations

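Broadly made relatives of the contractile proteins were listed as well. This list and the next were chosen after values had been seen, so that their directions are a description only. Of 10 non-muscle isoforms and partners, ACTB was not found, and all 9 tested had a log2 fold change above 0, with a median of 0.21. MYH14, a non-muscle myosin heavy chain, was at 308 ± 70.8 CPM in SM and 203 ± 20.2 CPM in STH (SD, n = 3 each). It was the only one of the 9 with an unadjusted p under 0.05, while 7.21% of all genes were higher in SM at that p. PPP1R12A, which is broadly made and not in this list, had a log2 fold change of -0.90. MYH9, another non-muscle myosin heavy chain, was at 937 ± 108 and 808 ± 94.7 CPM.

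Of 7 adrenergic and muscarinic receptors, 6 were tested and CHRM2 was too low. ADRA1A, an alpha adrenergic receptor that drives contraction of smooth muscle, was at 3.44, 3.32 and 1.66 CPM in SM (128, 30034, 30126) and at 7.10, 9.74 and 4.63 CPM in STH (XW3, XW5, XW8). The breeds did not overlap, with a log2 fold change of -1.35 (SE 0.38). ADRA1A was the only 1 of the 6 receptors with an unadjusted p under 0.05, while 10.8% of all genes were higher in STH at that p. It is also in the study's own list from these libraries, so that its direction is not independent evidence.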
